A study of Mus musculus with 64 samples.

Results

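Clone N and clone M are a pair of tumour cell lines grown out of single cells from the same pancreatic tumour of a genetically engineered mouse, in which Pdx1-Cre switches on a point-mutant Trp53 allele, among other changes, in the pancreas. Both clones belong to the group that the study called metabolic group 2, and among the 7 clones they held the highest (N) and the lowest (M) transcript levels of Asns, Atf4, Psph and Shmt2 in mono-culture. They were chosen for that difference. In the study's immunoblots the ATF4, ASNS, PSPH and SHMT2 proteins were higher in group 1 (clones E, H and V) than in group 2. The values here are RNA levels, in which clone N lay above the group 1 clones, and they do not measure protein. The comparison takes 8 of the 64 RNA-seq libraries of the series, 4 of clone N and 4 of clone M, all from tumour cells of C57BL/6 mixed background grown alone. A further 8 libraries, 4 of each clone, came from cells that had shared a dish with fibroblasts for 48 h and were then recovered by sorting for the GFP carried by the tumour cells. Whether the mono-cultures also passed through the sorter is not stated in the labels. Each line is 1 clone, so every p-value measures the spread between libraries of 2 lines and not between clones in general. Nothing in the labels tells whether the 4 libraries of a group were separate cultures.

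Because the mono-culture values chose the clones, they are given here as a description. Mono-culture calls use an adjusted p only as a cut-off that describes the size of the separation, and they are no independent evidence. The tests that are read as such come from the co-culture libraries, which the choice did not use. Levels are CPM, read counts brought to a common library size with TMM scaling over all libraries. The values of a group are listed from replicate 1 to replicate 4. A gene was called when edgeR (quasi-likelihood test) gave an adjusted p under 0.1 over 13029 genes and its log2 fold change, clone N over clone M, was at least 1 in size. These thresholds called 11.4% of all tested genes higher and 10.5% lower in clone N in mono-culture, and 9.57% and 9.9% in co-culture. Each list count below is to be read beside these shares. Library totals were 11661214 to 13716090 counts for clone N and 15236445 to 16500364 for clone M in mono-culture, and 12204614 to 19756478 in co-culture. The library closest in expression to each of the 16 was always of its own clone and culture (lowest r = 0.983).

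ATF4 is the transcription factor at the centre of the integrated stress response. Kinases that sense amino acid shortage, misfolded protein in the endoplasmic reticulum, haem or double-stranded RNA phosphorylate the initiation factor eIF2, general translation slows, and ATF4 protein is made from its own messenger. ATF4 then raises the transcription of genes that make, import and charge amino acids, many of them through a C/EBP-ATF response element with the letters TGATGNAA. In pancreatic tumour cells the same genes serve the demand for asparagine, serine, glycine and one-carbon units.

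The letters of that element, read on both strands, were found in the 250 bases before the start of 1134 of 32851 RefSeq promoter windows (3.45%). Of 111 tested genes on the 6 lists for the stress response, amino acid synthesis, transport and tRNA charging, 84 had a window and 12 of those held the letters (14.3%), among them 9 of the 41 that had a window and were called higher in clone N in mono-culture (21.95%). A gene counted when any of its windows held the letters, whereas the 3.45% is a share of single windows, so these shares are not like for like. The windows of 4 such genes are printed here from RefSeq (GRCm38.p6), 5′ to 3′ on the strand of the gene and ending at the base before its start, with the matching letters in capitals, as examples called in both cultures from asparagine synthesis, glutathione breakdown, cystine import and proline synthesis. Slc7a11 held the letters on both strands. The RefSeq starts differ from the GENCODE gene bounds used for positions elsewhere in the text, and each of the 4 windows overlaps those bounds. For Asns the matching letters lie inside the GENCODE bounds.
Asns, chr6:7693210-7693459, minus strand: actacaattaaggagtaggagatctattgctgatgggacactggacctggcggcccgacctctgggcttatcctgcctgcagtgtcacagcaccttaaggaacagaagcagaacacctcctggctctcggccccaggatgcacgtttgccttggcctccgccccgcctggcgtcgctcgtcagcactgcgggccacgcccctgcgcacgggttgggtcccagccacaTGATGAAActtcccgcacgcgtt
Chac1, chr2:119350992-119351241, plus strand: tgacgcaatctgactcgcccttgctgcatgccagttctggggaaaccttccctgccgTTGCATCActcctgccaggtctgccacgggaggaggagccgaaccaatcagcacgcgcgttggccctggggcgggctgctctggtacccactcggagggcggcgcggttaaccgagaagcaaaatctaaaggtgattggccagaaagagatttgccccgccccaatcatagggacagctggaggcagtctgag
Slc7a11, chr3:50443614-50443863, minus strand: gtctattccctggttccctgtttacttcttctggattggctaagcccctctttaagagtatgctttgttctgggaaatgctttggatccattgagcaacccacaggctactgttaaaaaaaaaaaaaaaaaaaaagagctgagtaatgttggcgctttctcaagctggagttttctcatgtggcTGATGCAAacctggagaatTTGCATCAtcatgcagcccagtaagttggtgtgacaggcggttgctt
Pycr1, chr11:120643749-120643998, minus strand: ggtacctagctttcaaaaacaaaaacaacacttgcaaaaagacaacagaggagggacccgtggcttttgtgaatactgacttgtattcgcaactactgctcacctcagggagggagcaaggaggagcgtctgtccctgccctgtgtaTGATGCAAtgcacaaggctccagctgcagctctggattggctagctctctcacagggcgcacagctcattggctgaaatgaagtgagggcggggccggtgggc
The other members with the letters and a call were Nupr1, Got1, Aars, Gars and Tars, while Atf3, Vldlr and Slc7a7 held them without a call. The windows of Atf4, Psph and Shmt2 did not hold these letters, which says nothing about regulation from elsewhere.

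The 4 genes behind the choice had log2 fold changes of 2.07 to 3.39 in mono-culture, and their levels did not overlap between the clones in either culture. Over all tested genes the clones did not overlap for 56.2% in mono-culture and 49% in co-culture. Asns (chr6:7675169-7693254), asparagine synthetase, read 359, 214, 417 and 349 CPM in clone N and 39.2, 26.6, 44.8 and 17.6 CPM in clone M in mono-culture, a log2 fold change of 3.39. The other 5 clones had mean levels between 49.8 CPM in clone K and 159.6 CPM in clone T, so clone N stood well above all of them and clone M below. In co-culture Asns reached 516, 547, 688 and 541 CPM in clone N and 69.2, 76.5, 102 and 96.99 CPM in clone M, and the log2 fold change was 2.74 ± 0.15 (SE, adjusted p = 4.64e-07). Atf4 (chr15:80255184-80257541) read 952, 666, 1074 and 953 CPM against 183, 169.5, 314 and 207 CPM in mono-culture, and the co-culture difference was 1.88 ± 0.14 (SE, adjusted p = 2.92e-06). Psph (chr5:129765558-129787449), the last enzyme of serine synthesis, read 96.98, 56.2, 107 and 104 CPM against 15.7, 14.3, 20.8 and 11.4 CPM, with a co-culture difference of 2.20 ± 0.14 (SE, adjusted p = 1.06e-06). Shmt2 (chr10:127517123-127522444), which turns serine into glycine and a one-carbon unit inside mitochondria, read 536, 304, 589 and 413 CPM against 96.1, 79.2, 108 and 65.7 CPM, with a co-culture difference of 2.05 ± 0.14 (SE, adjusted p = 1.75e-06). In clone N the lowest of the 4 mono-culture values came from replicate 2 for all 4 genes, and it still lay above every library of clone M.

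**Figure D1:**
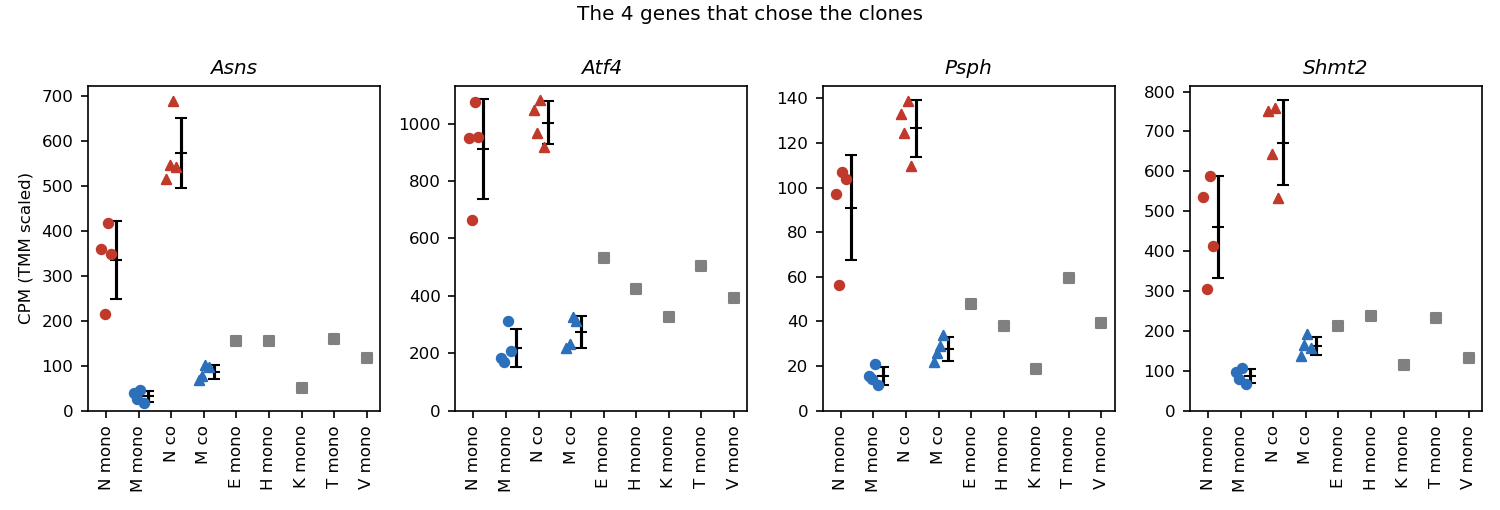
CPM of Asns, Atf4, Psph and Shmt2 in each library of clones N (red) and M (blue), in mono-culture (circles) and co-culture (triangles), with the mean and SD in black beside them, and the mono-culture means of the other 5 clones as grey squares. Every clone N library lies above every clone M library in both cultures, and clone K is the next lowest clone after clone M.

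The stress response list, which includes Atf4, stood in the same order. Of its 23 regulators and markers, 13 were called higher and 1 lower in clone N in mono-culture, where 11.4% of all tested genes were called higher and 10.5% lower, and 15 and 1 were called in co-culture, where the background was 9.57% and 9.9%. The median log2 fold change of the list was 1.14 in mono-culture and 1.25 in co-culture, against 0.00 over all tested genes in both cultures. Trib3, a pseudokinase that restrains ATF4, read 212, 94.9, 262 and 194 CPM in clone N and 12.1, 8.99, 17.7 and 3.71 CPM in clone M, and its co-culture difference was 3.25 ± 0.21 (SE, adjusted p = 1.13e-06). Chac1, which degrades glutathione, read 52.5, 29.9, 64.1 and 50.7 CPM against 2.82, 2.38, 5.91 and 1.09 CPM, with 2.81 ± 0.29 (SE, adjusted p = 2.32e-05) in co-culture. Both genes were lowest in replicate 2 among the clone N libraries and lowest in replicate 4 among those of clone M, without overlap. Impact, an inhibitor of the eIF2 kinase GCN2, was the member called lower: it read 66.3, 74.05, 69.9 and 56.4 CPM in clone N and 256, 233, 248 and 253 CPM in clone M, and differed by -1.44 ± 0.11 (SE, adjusted p = 3.17e-06) in co-culture. The 4 eIF2 kinases themselves were not called in either culture.

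The enzymes and carriers of amino acid metabolism were counted with these regulators. On the 6 lists together, 53 of 111 tested genes were called higher and 7 lower in clone N in mono-culture, and 53 and 4 in co-culture, with medians of 0.90 and 0.89. These counts include the 4 genes that chose the clones, and without them 49 of 107 were higher and 7 lower in mono-culture and 49 and 4 in co-culture, with medians of 0.84 and 0.88. Slc7a11, the cystine importer of the xc- system, showed the widest difference among them, with 597, 335, 1000.2 and 732 CPM in clone N against 28.7, 14.4, 30.5 and 10.8 CPM in clone M, and 4.32 ± 0.21 (SE, adjusted p = 1.75e-07) in co-culture. Slc7a5, the large neutral amino acid carrier, read 163, 98.4, 160.3 and 127 CPM against 19.3, 17.2, 29.5 and 10.8 CPM, with 2.26 ± 0.22 (SE, adjusted p = 1.71e-05) in co-culture. Of the 17 tested transporters, 8 were called higher and 2 lower in mono-culture and 7 and 2 in co-culture. The 2 lower ones were scarce: Slc7a3 stayed at 0.244 to 0.741 CPM in clone N and 1.18 to 4.07 CPM in clone M, and Slc16a10 at 0.0741 to 0.244 against 0.425 to 2.23 CPM. In co-culture Slc7a3 differed by -1.86 ± 0.51 (SE, adjusted p = 0.00964) and Slc16a10 by -0.66 ± 0.35 (SE, adjusted p = 0.132), the latter passing with the replicate number as a block (adjusted p = 0.0694).

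In the serine, glycine and folate list, 9 of 21 were called higher and 1 lower in clone N in mono-culture, and 9 and 1 in co-culture. These counts include Psph and Shmt2, which were among the genes that chose the clones. Cth, the enzyme that releases cysteine from cystathionine, read 66.3, 30.9, 123 and 66.6 CPM in clone N and 8.12, 6.36, 7.88 and 5.77 CPM in clone M, with 2.91 ± 0.22 (SE, adjusted p = 2.92e-06) in co-culture. Mthfd2, the mitochondrial folate dehydrogenase, read 132, 70.6, 152 and 114 CPM against 17.2, 10.9, 21.99 and 6.86 CPM, with 2.40 ± 0.17 (SE, adjusted p = 2.13e-06) in co-culture. The libraries of the clones were far apart for both genes. Aldh1l1, a cytosolic enzyme that removes one-carbon units from the folate pool, ran the other way at 91.9 to 160.2 CPM in clone N and 281 to 304 CPM in clone M (co-culture -1.04 ± 0.14 (SE, adjusted p = 0.000106)).

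Proline synthesis gave the same order, with Aldh18a1, which starts the pathway from glutamate, at 228, 133, 242 and 201 CPM against 36.1, 30.8, 39.8 and 15.4 CPM and 1.98 ± 0.15 (SE, adjusted p = 2.91e-06) in co-culture. Pycr1, which ends it, read 23.8, 12.7, 24.4 and 24.2 CPM against 7.06, 5.46, 6.89 and 3.34 CPM, with 1.24 ± 0.14 (SE, adjusted p = 4.14e-05). In the proline, arginine and polyamine list, 6 of 14 were called higher and 0 lower in clone N in mono-culture, and 5 and 0 in co-culture. The tRNA synthetases, which load amino acids onto their tRNAs, shared 1 direction: of the cytosolic enzymes, 12 of 20 were called higher and 0 lower in clone N in mono-culture, and 13 and 0 in co-culture, with a median of 1.39 in mono-culture and 1.11 in co-culture. Gars, which charges glycine tRNA, read 497, 331, 629 and 542 CPM against 130.1, 122, 144 and 99.5 CPM, and Cars, which charges cysteine tRNA, 171, 113, 264 and 247 CPM against 48.4, 44.3, 61.4 and 42.5 CPM. Their co-culture differences were 1.74 ± 0.12 (SE, adjusted p = 1.9e-06) and 1.81 ± 0.17 (SE, adjusted p = 1.41e-05).

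Asparagine, aspartate and glutamine metabolism was mixed. On that list, 5 of 16 were called higher and 3 lower in clone N in mono-culture, and 4 and 0 in co-culture. The genes called higher include Asns, which was among those that chose the clones. Gfpt2, a gate to the hexosamine pathway, was called higher at 3.71 to 13.5 CPM in clone N against 0.193 to 0.788 CPM (co-culture 3.69 ± 0.36 (SE, adjusted p = 1.48e-05)). Asrgl1, an asparaginase, read 2.14 to 4.15 CPM against 12.5 to 16.5 CPM in mono-culture, and its co-culture difference of -0.52 ± 0.17 (SE, adjusted p = 0.0239) passed the test without reaching the fold. Glud1, glutamate dehydrogenase, read 411, 466, 334 and 324 CPM in clone N and 981, 1051, 837 and 1032 CPM in clone M in mono-culture, whereas in co-culture it ranged over 360.2 to 443 and 372 to 478 CPM and the difference was -0.05 ± 0.11 (SE, adjusted p = 0.75).

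Genes of the cell division cycle moved alongside. Of the 28 tested, 25 were called higher and 0 lower in clone N in mono-culture and 16 and 0 in co-culture, with medians of 1.71 in mono-culture and 1.16 in co-culture. Without the minimum fold edgeR passed 27 higher and 0 lower in each culture, against 33.4% in each direction over all genes in mono-culture, and 30.2% higher and 30.4% lower in co-culture. The summed level of the list was 1985 to 3386 CPM over the clone N libraries and 571 to 1268 CPM over those of clone M, the lowest being replicate 4 of clone M, which was also lowest for Asns, Psph, Shmt2, Trib3 and Chac1. In co-culture the sums were 2576 to 4147 and 1353 to 1839 CPM. Bub1, a spindle checkpoint kinase, read 70.3, 39.7, 35.2 and 52.6 CPM against 7.82, 9.06, 13.8 and 2.79 CPM, and Ccna2, cyclin A2, 164, 107, 58.3 and 68.1 CPM against 16.1, 13.9, 32.7 and 4.74 CPM, with co-culture differences of 1.91 ± 0.16 (SE, adjusted p = 6.88e-06) and 1.86 ± 0.19 (SE, adjusted p = 2.18e-05). The part of growth rate in the amino acid results was not tested. Among drivers and suppressors of this cancer, 3 and 0 of 19 were called higher and lower in mono-culture and 4 and 1 in co-culture. Cdkn1a, the p21 inhibitor of cyclin-dependent kinases, was higher in clone N, at 29.1, 16.5, 50.4 and 69.7 CPM against 1.41, 1.48, 3.74 and 2.25 CPM (co-culture 2.62 ± 0.33 (SE, adjusted p = 8.58e-05)), and so was Ccne1, cyclin E1, at 11.2 to 15.5 against 0.850 to 2.43 CPM (co-culture 1.09 ± 0.21 (SE, adjusted p = 0.00108)).

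**Figure D2:**
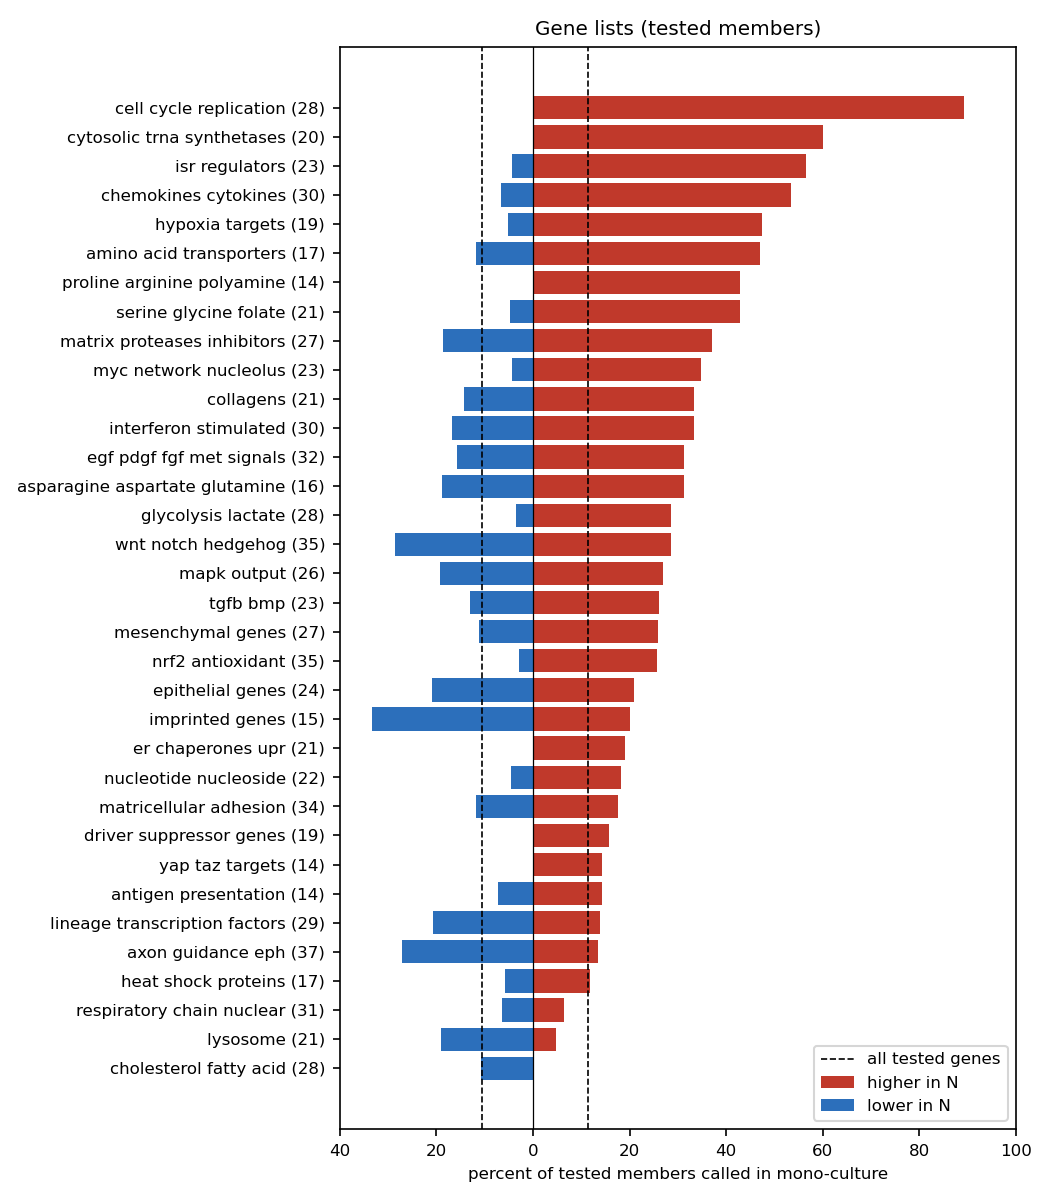
Percent of the tested members of each list that were called higher (red, to the right) or lower (blue, to the left) in clone N in mono-culture, with the number of tested members in brackets and dashed lines at the shares of all tested genes, 11.4% and 10.5%. Cell cycle genes, tRNA synthetases and stress response regulators extend furthest to the right, and imprinted, Wnt and axon guidance genes furthest to the left. Lists with under 14 tested members and marker lists are not drawn. The lists include the genes that chose the clones.

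Endoplasmic reticulum chaperone, nucleolar and glycolytic genes called in mono-culture were mostly higher in clone N. Over all tested genes, 11.4% were called higher and 10.5% lower in mono-culture, and 9.57% and 9.9% in co-culture. Among endoplasmic reticulum chaperones, 4 of 21 were called higher and 0 lower in clone N in mono-culture, and 5 and 0 in co-culture. Hspa5 (BiP) read 1321, 1141, 1639 and 1663 CPM against 466, 483, 604 and 565 CPM and Hyou1 178 to 256 against 76.4 to 93.6 CPM, with co-culture differences of 1.63 ± 0.26 (SE, adjusted p = 0.000413) and 1.24 ± 0.15 (SE, adjusted p = 5.73e-05). For MYC and the nucleolus the counts were 8 and 1 of 23 in mono-culture and 3 and 1 in co-culture, led by the ribosome assembly factors Nop56 and Nop2 (co-culture 1.16 ± 0.16 (SE, adjusted p = 0.000123) and 0.98 ± 0.15 (SE, adjusted p = 0.000238)). Mycl, a MYC relative, was below 1 CPM in clone N and 1.58 to 2.44 CPM in clone M (co-culture -0.79 ± 0.27 (SE, adjusted p = 0.0295)). Heat shock proteins gave 2 and 1 of 17, with a list median of 0 in mono-culture, and then 1 and 0. The share called higher in mono-culture was close to that of all tested genes. Hsph1 and Hspd1 were 1.18 and 1.07 higher on the log2 scale in mono-culture and 0.65 and 0.86 in co-culture. Hspa1a was 0.244 to 0.593 CPM in clone N against 1.35 to 2.23 CPM in clone M (co-culture -0.11 ± 0.47 (SE, adjusted p = 0.862)).

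Glycolysis and lactate genes gave 8 and 1 of 28 in mono-culture and 5 and 1 in co-culture, with medians of 0.58 and 0.15. Ldhb, the heart-type lactate dehydrogenase subunit, was 0 in every clone M library in mono-culture and 1.499, 0.667, 0.163 and 0.428 CPM in clone N, at least 14.9-fold higher against a floor of 3 counts over the 4 libraries (co-culture 2.30 ± 0.45 (SE, adjusted p = 0.00135)). Pfkp, the platelet phosphofructokinase, was uneven in clone N at 17.5, 18.8, 29.7 and 69.3 CPM and lower in clone M at 6.53, 5.85, 12.7 and 9.90 CPM (co-culture 2.10 ± 0.49 (SE, adjusted p = 0.00404)). The hypoxia list gave 9 and 1 of 19, then 7 and 0. The libraries did not overlap for 8 of the 19 in mono-culture and 7 in co-culture, against 56.2% and 49% of all tested genes. The summed level of the list in mono-culture was 1454, 1543, 2214 and 3223 CPM in clone N and 1341 to 1647 CPM in clone M. Only replicates 3 and 4 of clone N lay above clone M. The carbonic anhydrase Car12 read 12.5 to 22.98 against 0.294 to 0.547 CPM and the secreted Stc1 6.97 to 40.9 against 0.547 to 1.90 CPM (co-culture 4.80 ± 0.20 (SE, adjusted p = 1.25e-07) and 3.33 ± 0.36 (SE, adjusted p = 3.38e-05)). Car9, another carbonic anhydrase, was under 1 CPM in both clones and lower in clone N (mono-culture -1.40, co-culture -0.00 ± 0.36 (SE, adjusted p = 0.998)).

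Mitochondrial genes did not share the direction of the amino acid programme. Among nuclear genes of the respiratory chain, 2 of 31 were called higher and 2 lower in clone N in mono-culture, and 2 and 1 in co-culture, with Cycs and Uqcrq higher in clone N (co-culture 1.14 ± 0.11 (SE, adjusted p = 1.74e-05) and 1.22 ± 0.12 (SE, adjusted p = 1.93e-05)) and Uqcrfs1 and Sdha lower (co-culture -0.85 ± 0.10 (SE, adjusted p = 6.26e-05) and -1.04 ± 0.10 (SE, adjusted p = 1.87e-05)). Uqcrfs1 read 38.9 to 49.96 CPM in clone N and 107 to 116 CPM in clone M, and Sdha 111 to 153 and 279.9 to 308 CPM. Of the 11 tested mitochondrially encoded genes on the list, none reached the fold in mono-culture and 1 did, lower, in co-culture. At adjusted p under 0.1 alone 9 lay lower and 0 higher in mono-culture and 6 and 0 in co-culture, with medians of -0.66 in mono-culture and -0.61 in co-culture. Over all tested genes 33.4% lay lower at that cut-off in mono-culture and 30.4% in co-culture. Of all 19 tested genes of the mitochondrial chromosome, 4 were called lower and 0 higher in mono-culture, and 3 and 0 in co-culture. Over all tested genes 10.5% and 9.9% were called lower. Reads of such genes can also come from near-identical nuclear copies.

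Lipid and lysosomal genes leaned lower and nucleotide genes higher in clone N at small folds. Without the minimum fold, 0 lay higher and 13 lower in mono-culture and 2 and 13 in co-culture on the cholesterol and fatty acid list, 3 and 12 in each culture on the lysosomal list, and 13 and 3 and then 14 and 2 on the nucleotide list. Cholesterol and fatty acid synthesis gave 0 and 3 of 28 and then 0 and 4, the desaturases Fads1 and Fads2 lying at 133 to 209.8 and 60.5 to 125 CPM in clone N and 348 to 420.4 and 178 to 234 CPM in clone M. Their co-culture differences were -1.16 ± 0.12 (SE, adjusted p = 2.29e-05) and -1.23 ± 0.13 (SE, adjusted p = 3.3e-05). The lysosomal list gave 1 and 4 of 21 and then 1 and 4. Gpnmb, a glycoprotein of lysosome-rich cells, read 110.1, 269.5, 86.3 and 80.5 CPM in clone N, its replicate 2 standing apart, and 842, 767, 657 and 791 CPM in clone M (co-culture -2.99 ± 0.21 (SE, adjusted p = 1.89e-06)). Ctsc, the protease cathepsin C, was higher in clone N (co-culture 1.26 ± 0.21 (SE, adjusted p = 0.00041)). Nucleotide and nucleoside enzymes gave 4 and 1 of 22 and then 1 and 1, with co-culture differences of 0.77 ± 0.32 (SE, adjusted p = 0.0607) for Ada, 0.36 ± 0.20 (SE, adjusted p = 0.139) for Dck and -1.31 ± 0.20 (SE, adjusted p = 0.000236) for Prps2, the only one of the 3 called.

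Redox genes placed clone N higher for a few strong members. The NRF2 list gave 9 and 1 of 35 in mono-culture and 9 and 2 in co-culture. Nqo1, a quinone reductase, read 24.3, 20.7, 27.1 and 25.1 CPM in clone N and 0.0588, 0.257, 0.197 and 0.121 CPM in clone M, and Mgst1, a microsomal glutathione transferase, 103, 133, 75.04 and 75.3 CPM and 1.94, 1.03, 1.51 and 1.70 CPM. Neither gene overlapped between the clones, and in co-culture they differed by 4.51 ± 0.35 (SE, adjusted p = 3.92e-06) and 4.87 ± 0.20 (SE, adjusted p = 1.18e-07). Aldh1a1, which makes retinoic acid, was lower in clone N by 1.43 on the log2 scale in mono-culture (co-culture -1.84 ± 0.34 (SE, adjusted p = 0.000956)).

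The clones also differed in the identity of their surface and shape genes. In mono-culture both held the epithelial keratins Krt8 (means of 1281 CPM in clone N and 717 CPM in clone M), Krt18 and Krt19, and in both Epcam averaged under 1 CPM and Cldn4 was 0. Cdh1, E-cadherin of epithelial junctions, was near 1 CPM in clone M and high in clone N: 107, 111, 100.1 and 88.7 CPM against 0.941, 1.28, 0.853 and 0.911 CPM, and 7.51 ± 0.21 (SE, adjusted p = 4.91e-09) in co-culture. The epithelial list was split, at 5 and 5 of 24 in mono-culture and 8 and 5 in co-culture, with medians of 0.02 in mono-culture and -0.34 in co-culture. Lad1, a component of the anchoring filaments, was higher in clone N (2.62 to 9.04 against 0 to 0.193 CPM, co-culture 5.98 ± 0.38 (SE, adjusted p = 1.19e-06)). The claudins Cldn1 and Cldn3 were lower: Cldn1 had 2 counts in clone N against 3.74 to 5.08 CPM in clone M, 123-fold, with a 95% counting interval of 33.7 to 1019, and Cldn3 had 0 to 0.326 against 0.790 to 1.73 CPM. In co-culture they differed by -4.40 ± 0.32 (SE, adjusted p = 2.58e-06) and -5.17 ± 0.63 (SE, adjusted p = 6.79e-05).

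Mesenchymal genes were likewise split, 7 and 3 of 27 and then 5 and 2. Nt5e (CD73), an ecto-nucleotidase, read 9.89, 8.67, 31.3 and 28.3 CPM in clone N and 0.235, 0.257, 0.197 and 0.243 CPM in clone M (co-culture 4.36 ± 0.38 (SE, adjusted p = 7.76e-06)). Id2 and Id3, inhibitors of helix-loop-helix factors, were lower in clone N, Id3 reading 70.3, 163, 18.01 and 34.1 CPM against 189, 194, 215 and 207 CPM. Their co-culture differences were -1.98 ± 0.28 (SE, adjusted p = 0.000184) and -1.45 ± 0.27 (SE, adjusted p = 0.00105). Myl9, a myosin light chain, was at most 0.225 CPM in clone N and 0 in clone M in mono-culture, at least 3.23-fold higher, and the test did not pass in co-culture (0.13 ± 0.28 (SE, adjusted p = 0.719)).

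Matrix genes are given beside the markers of fibroblasts, which also make matrix. The fibroblast markers Dcn, Thy1 and Postn were 0 in all 8 mono-culture libraries and averaged 11.03, 15.1 and 69.4 CPM in clone N and 10.6, 6.91 and 52.03 CPM in clone M in co-culture. The summed level of the 10 fibroblast markers was 467 to 1298 CPM in clone N and 507 to 1179.9 CPM in clone M, ranges that overlap. In mono-culture, where Pdgfrb and Pdgfra differed, it was 184 to 254 and 48.3 to 86.1 CPM. Pdgfrb, a PDGF receptor, read 89.7, 115, 70.6 and 72.4 CPM in clone N and 5.71, 5.72, 1.97 and 3.34 CPM in clone M, and Pdgfra 21.03 to 52.3 and 3.22 to 5.28 CPM, in cultures where Dcn and Thy1 were 0. The part of fibroblast RNA in the co-culture values was not tested. Over all tested genes 11.4% were called higher and 10.5% lower in mono-culture, and 9.57% and 9.9% in co-culture. Collagens gave 7 and 3 of 21 and then 5 and 0, matrix proteases and their inhibitors 10 and 5 of 27 and then 7 and 3, and matricellular and adhesion genes 6 and 4 of 34 and then 9 and 1. At adjusted p alone the last of these gave 9 and 10 and then 18 and 3.

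Within those lists, the collagen genes Col15a1 and Col27a1 were higher in clone N (co-culture 0.90 ± 0.37 (SE, adjusted p = 0.0597) and 1.77 ± 0.37 (SE, adjusted p = 0.00196)). Col11a1 was lower in clone N in mono-culture, 0.0741 to 0.214 against 0.235 to 0.790 CPM, and higher in co-culture (1.02 ± 0.38 (SE, adjusted p = 0.0401)). Lama4, a laminin chain, turned the same way, from 0 in clone N and 0.0607 to 0.131 CPM in clone M to 2.22 to 8.70 against 0.896 to 3.31 CPM (1.54 ± 0.45 (SE, adjusted p = 0.0138)). The proteases Adamts15 and Adamts12 were higher in clone N, and Mmp15 and Mmp14 lower. Adamts15 read 10.4, 25.2, 1.71 and 2.92 CPM against 0, 0, 0.328 and 0.182 CPM and Mmp15 0.143 to 0.525 against 10.4 to 12.8 CPM. Co-culture differences were 7.49 ± 1.69 (SE, adjusted p = 0.00614) for Adamts15, 0.99 ± 0.39 (SE, adjusted p = 0.0525) for Adamts12, -5.41 ± 0.29 (SE, adjusted p = 4.27e-07) for Mmp15 and -1.79 ± 0.17 (SE, adjusted p = 1.42e-05) for Mmp14. Ncam1, a neural adhesion molecule, was 0 in clone M and 4.06 to 5.55 CPM in clone N, at least 103-fold higher (co-culture 2.19 ± 0.39 (SE, adjusted p = 0.000745)). Nid1, a basement membrane linker, was lower in clone N (co-culture -0.91 ± 0.29 (SE, adjusted p = 0.0217)), and Thbs2, a thrombospondin, was higher in mono-culture by 3.42 on the log2 scale. Thbs2 passed in co-culture only under some settings (1.20 ± 0.60 (SE, adjusted p = 0.112), and adjusted p = 0.00209 with the replicate block).

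Some growth factor genes separated the clones strongly, in both directions. Of the EGF, PDGF, FGF and MET signals, 10 of 32 were called higher and 5 lower in clone N in mono-culture, and 9 and 5 in co-culture. The shares over all tested genes were 11.4% and 10.5% in mono-culture and 9.57% and 9.9% in co-culture. Areg (amphiregulin), an EGF receptor ligand, read 8.84, 6.75, 51.2 and 78.9 CPM in clone N, higher in replicates 3 and 4, and 0.294, 0.385, 0.591 and 0.486 CPM in clone M. Fgf7 read 64.5, 57.1, 43.3 and 37.7 CPM and 1.59, 2.44, 1.77 and 2.37 CPM, with 3.72 ± 0.15 (SE, adjusted p = 1.18e-07) in co-culture against 5.26 ± 0.58 (SE, adjusted p = 3.43e-05) for Areg. Igf1 was the reverse, 0.150, 0.148, 0 and 0.214 CPM in clone N and 14.001, 14.97, 9.58 and 14.9 CPM in clone M (co-culture -2.14 ± 0.37 (SE, adjusted p = 0.000663)), as was Nrg2, a neuregulin (co-culture -2.44 ± 0.35 (SE, adjusted p = 0.000192)). Targets of MAPK signalling gave 7 and 5 of 26 and then 5 and 4. The AP-1 subunit Fosl1 and the feedback inhibitor Spry4 were higher in clone N (co-culture 1.13 ± 0.20 (SE, adjusted p = 0.000703) and 1.45 ± 0.20 (SE, adjusted p = 0.000132)) and the phosphatase Dusp1 was lower (4.35, 7.93, 7.82 and 11.7 against 45.1, 29.3, 119 and 144 CPM, co-culture -2.48 ± 0.52 (SE, adjusted p = 0.00203)).

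In the TGF-beta and BMP list, 6 of 23 were called higher and 3 lower in clone N in mono-culture, and 7 and 4 in co-culture. All tested genes gave 11.4% and 10.5% in mono-culture and 9.57% and 9.9% in co-culture. The secreted antagonists Grem1, which binds BMPs, and Fst (follistatin), which binds activins, were both higher in clone N, Grem1 at 324, 358, 577 and 541 CPM against 49.3, 57.1, 35.3 and 50.4 CPM (co-culture 4.35 ± 0.28 (SE, adjusted p = 1.2e-06) and 2.94 ± 0.27 (SE, adjusted p = 1.19e-05)). Smad9 and Inhbb were 0 in clone N in mono-culture and at most 1.73 and 0.45 CPM in clone M, at least 25.6-fold and 3.58-fold lower. In co-culture they differed by -1.46 ± 0.55 (SE, adjusted p = 0.0435) and 0.88 ± 0.36 (SE, adjusted p = 0.0557). Wnt, Notch and Hedgehog genes gave 10 and 10 of 35 and then 6 and 10. The ligands split between the clones: Wnt7b read 68.5, 33.2, 158 and 169 CPM in clone N against 1.82, 2.18, 2.95 and 1.21 CPM, and Wnt7a 0.899, 0.889, 0.163 and 0.0713 CPM against 22.1, 26.6, 32.6 and 21.1 CPM. In co-culture Wnt7b differed by 2.07 ± 0.26 (SE, adjusted p = 8.82e-05) and Wnt7a by -3.65 ± 0.22 (SE, adjusted p = 8.84e-07). Wnt6 was higher and Wnt5a lower in clone N (co-culture 3.70 ± 0.68 (SE, adjusted p = 0.000939) and -1.69 ± 0.29 (SE, adjusted p = 0.000601)). YAP and TAZ targets gave 2 and 0 of 14 and then 4 and 0, with the coagulation starter F3 and the partner factor Tead4 higher in clone N (co-culture 1.86 ± 0.25 (SE, adjusted p = 0.000112) and 1.24 ± 0.18 (SE, adjusted p = 0.00017)). In mono-culture the share called higher was close to the 11.4% of all tested genes. At adjusted p alone this list was balanced, with 5 higher and 5 lower in each culture and medians of -0.03 in mono-culture and -0.06 in co-culture.

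Axon guidance and ephrin genes gave 5 and 10 of 37 and then 8 and 10, where all tested genes gave 11.4% and 10.5% and then 9.57% and 9.9%. Epha7, an ephrin receptor, and Sema5a, a semaphorin, were lower in clone N, Sema5a reading 8.84, 14.97, 20.9 and 11.7 CPM against 227, 211, 145 and 270.0 CPM (co-culture -2.37 ± 0.29 (SE, adjusted p = 6.74e-05) and -1.82 ± 0.28 (SE, adjusted p = 0.000268)). The semaphorins Sema4a and Sema3d were higher (co-culture 3.58 ± 0.55 (SE, adjusted p = 0.00029) and 2.65 ± 0.57 (SE, adjusted p = 0.00255)). Lineage transcription factors gave 4 and 6 of 29 and then 7 and 7. Sox4, Nr2f1, Foxq1 and Foxc1, called lower in both cultures, are on chromosome 13. Most tested genes of that chromosome were lower in clone N, as given below. Hnf4a, a factor of liver, gut and pancreas epithelium, read 74.6, 78.7, 32.1 and 27.2 CPM in clone N and 0.647, 0.257, 0.197 and 0.547 CPM in clone M (co-culture 8.49 ± 0.58 (SE, adjusted p = 1.76e-06)), while Gata6, an endodermal factor, had 1 count in clone N and 2.69 to 4.19 CPM in clone M (co-culture -1.12 ± 0.32 (SE, adjusted p = 0.0114)). Bhlha15 was higher and Foxc1 lower in clone N (co-culture 2.79 ± 0.40 (SE, adjusted p = 0.000169) and -1.53 ± 0.31 (SE, adjusted p = 0.00173)).

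Chemokine and cytokine genes were largely higher in clone N. Of the 30 tested, 16 were called higher and 2 lower in mono-culture and 16 and 3 in co-culture. The lower one of greatest size was Cxcl12, ligand of CXCR4, at 0.0749, 0.222, 0 and 0.0713 CPM in clone N and 146, 172, 109 and 185 CPM in clone M, with a co-culture difference of -3.89 ± 0.35 (SE, adjusted p = 9.53e-06). Cxcl10 and Lcn2 (lipocalin 2) were higher in clone N at 0.593 to 5.92 and 1.70 to 16.1 CPM, with co-culture differences of 2.37 ± 0.30 (SE, adjusted p = 8.03e-05) and 4.74 ± 0.77 (SE, adjusted p = 0.000413). Cxcl16 was lower in mono-culture by 1.05 on the log2 scale and differed by -0.07 ± 0.14 (SE, adjusted p = 0.709) in co-culture. Interferon-stimulated genes gave 10 and 5 of 30 and then 7 and 2: Ifitm1, a membrane restriction factor, read 137, 102, 231 and 289.7 CPM against 2.06, 2.38, 2.69 and 1.15 CPM (co-culture 6.65 ± 0.16 (SE, adjusted p = 1.97e-09)). At adjusted p alone the same list leaned the other way, with 10 higher and 15 lower in mono-culture, 9 and 10 in co-culture and medians of -0.40 in mono-culture and -0.09 in co-culture. Ifi27 was higher and the GTPases Irgm1 and Gbp2 were lower (co-culture 1.60 ± 0.47 (SE, adjusted p = 0.0148), -1.94 ± 0.14 (SE, adjusted p = 1.9e-06) and -1.44 ± 0.37 (SE, adjusted p = 0.0074)). Antigen presentation gave 2 and 1 of 14 and then 3 and 0. Without the minimum fold 3 lay higher and 6 lower in mono-culture and 7 and 4 in co-culture. B2m was at 279 to 423 CPM in clone N and 878 to 1079 CPM in clone M (co-culture -0.76 ± 0.19 (SE, adjusted p = 0.00587)). Cd74 and Psmb8 were higher in clone N (co-culture 4.08 ± 0.26 (SE, adjusted p = 1.2e-06) and 2.31 ± 0.33 (SE, adjusted p = 0.000171)).

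Chromosome 13 stood apart from the other autosomes. The 489 tested genes on it had a median log2 fold change of -0.96 in mono-culture and -0.86 in co-culture, and 431 (88.1%) had a negative value. In mono-culture 45.4% were called lower and 2.45% higher in clone N, against 10.5% and 11.4% of all tested genes, and in co-culture 42.7% were called lower against 9.9%. The medians of the other autosomes lay between -0.18 and 0.28. The 19 tested genes of the mitochondrial chromosome were also lower in clone N, with medians of -0.72 in mono-culture and -0.69 in co-culture. The shift ran along chromosome 13: in the 6 windows of 20 Mb with 48 or more tested genes, the mono-culture medians were between -1.11 and -0.73. Against the median of the 7 clones, the 372 genes at 5 CPM or more had a median of -0.58 in clone N, 0.19 in clone M, 0.30 in clone K, 0.25 in clone V, -0.11 in clone T, -0.04 in clone E and 0.00 in clone H. The 4 clone N libraries all lay between -0.62 and -0.59. Uqcrfs1, Sdha, Nid1, Foxc1, Sox4, Nr2f1 and Foxq1 are on this chromosome, as are Fst and Pfkp, which were higher in clone N. Genomic copy number was not measured, and the 222 genes called lower there were 16.3% of all genes called lower in clone N.

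**Figure D3:**
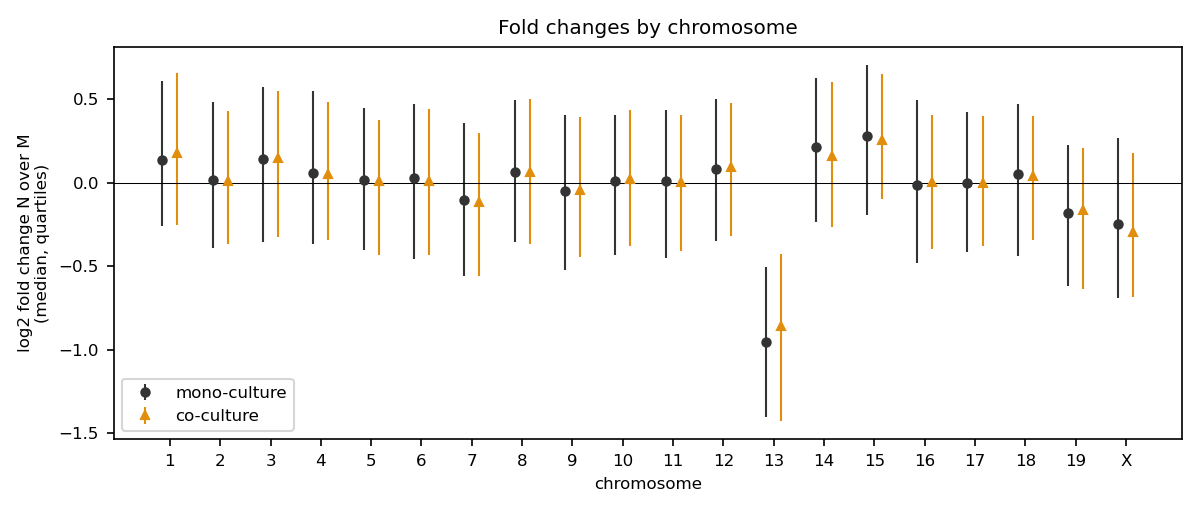
Median log2 fold change, clone N over clone M, of the tested genes on each chromosome, with bars from the lower to the upper quartile, in mono-culture (dark circles) and co-culture (orange triangles). Chromosome 13 lies at -0.96 and -0.86, and the other chromosomes drawn between -0.29 and 0.28. Chromosome Y and the mitochondrial chromosome are not drawn.

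Single imprinted genes separated the clones. Of 15 tested imprinted genes, 3 were called higher and 5 lower in mono-culture and 2 and 4 in co-culture. The shares of all tested genes were 11.4% and 10.5% in mono-culture and 9.57% and 9.9% in co-culture. Snrpn was 0 in clone M and 3.14 to 5.25 CPM in clone N, at least 85.9-fold higher, and Ndn was 0 in clone N and 3.34 to 4.11 CPM in clone M, at least 67.3-fold lower. Both are expressed from the paternal copy of the same imprinted region of chromosome 7, and in co-culture they differed by 5.80 ± 0.50 (SE, adjusted p = 7.14e-06) and -3.01 ± 0.33 (SE, adjusted p = 3.58e-05). Ddc was higher and Peg10 lower in clone N (co-culture 1.20 ± 0.36 (SE, adjusted p = 0.0162) and -2.12 ± 0.24 (SE, adjusted p = 4.63e-05)). Hox genes gave 2 and 0 of 6 and then 1 and 0, through Hoxa3 (co-culture 1.46 ± 0.31 (SE, adjusted p = 0.00222)) and Hoxa5, at most 0.927 CPM (co-culture 0.20 ± 0.49 (SE, adjusted p = 0.755)). Sex chromosome genes gave 0 and 0 of 8 in mono-culture and 0 and 0 in co-culture by edgeR, while without a minimum fold 7 and 5 lay lower in clone N.

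Endocrine, leukocyte and endothelial markers were low in both clones in mono-culture, unlike the fibroblast markers Pdgfrb and Pdgfra in clone N, given above. Endocrine markers summed to at most 0.148 CPM, leukocyte markers to 7.87 to 14.4 CPM in clone N and 10.6 to 16.8 CPM in clone M, nearly all of it Cd68, and endothelial markers to 1.27 to 2.20 and 0.235 to 0.525 CPM. Leukocyte markers gave 0 calls of 1 tested gene in both cultures, and none of the endocrine markers was tested. The ductal markers gave 1 and 1 of 7 and then 1 and 1, the acinar markers 2 and 0 of 2 and then 1 and 0, the fibroblast markers 3 and 0 of 9 and then 3 and 0 and the endothelial markers 1 and 0 of 1 and then 1 and 0. The acinar genes Prss2 and Cela1 read 3.22 to 5.56 and 1.63 to 3.92 CPM in clone N against 0.588 to 1.58 and 0.985 to 1.54 CPM (co-culture 1.56 ± 0.33 (SE, adjusted p = 0.0021) and 0.03 ± 0.26 (SE, adjusted p = 0.931)), and the endothelial Pecam1 0.927 to 1.33 against 0.235 to 0.263 CPM (co-culture 2.99 ± 0.55 (SE, adjusted p = 0.000871)).

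The genes with the widest fold changes were on in one clone and off in the other. Of all tested genes, 2851 (21.9%) were called in mono-culture, 1489 higher and 1362 lower in clone N, and 313 and 219 of these exceeded 3 on the log2 scale. Atp9a, a lipid flippase, read 20.98, 26.8, 20.9 and 20.7 CPM in clone N and 0 in every clone M library, at least 479-fold higher. Kctd17, Scamp5 and Rnf125 were likewise 0 in clone M, and 6.30 to 8.23, 5.10 to 6.60 and 3.42 to 7.01 CPM in clone N, at least 147-, 122- and 108-fold higher. Kctd15 had 2 counts in clone M against 42.3, 38.02, 48.2 and 38.8 CPM in clone N, 1339-fold, with a 95% counting interval of 370.3 to 11067. Pkp1, a desmosomal plakophilin, Muc13, a membrane mucin, Gem, a small GTPase, Zic2, a zinc finger factor, Ckb, brain creatine kinase, Echdc2 and Ikzf1, the Ikaros factor, each had 1 to 3 counts in clone M and ranged in clone N from 4.97 CPM for Echdc2 to 43.7 CPM for Pkp1. All 12 were called higher in clone N in co-culture as well, from 1.11 ± 0.42 (SE, adjusted p = 0.0443) for Kctd17 to 10.55 ± 0.63 (SE, adjusted p = 6.95e-06) for Atp9a.

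On the clone M side, Cxcl12 was followed by Arhgap32, a GTPase-activating protein, Tdrkh, a partner of piRNA proteins, Fam110b and Nepn, which were 0 in clone N. Arhgap32 read 14.2, 16.2, 13.98 and 17.4 CPM in clone M, at least 274-fold above clone N, and the other 3 were at least 158-, 134- and 108-fold higher in clone M. Il7, a cytokine of lymphocytes, had 1 count in clone N against 17.002, 19.7, 10.96 and 20.4 CPM in clone M, and Gprin3, Gpc4, Cftr (the chloride channel of ductal cells) and Flrt2 also had 1 count each against 6.63 to 13.7, 5.32 to 7.58, 5.10 to 6.63 and 3.81 to 6.24 CPM. Colec12, a scavenger receptor, read 0.150, 0.148, 0.163 and 0.143 CPM against 76.8, 90.2, 89.4 and 92.9 CPM, and Lmo1, a LIM-only factor, 0.225, 0.148, 0.0815 and 0.143 against 24.4, 23.1, 13.9 and 25.2 CPM. In co-culture Lmo1 kept its distance (-7.09 ± 0.29 (SE, adjusted p = 1.18e-07)), but several of these genes were detected in clone N: Arhgap32 at 0.781, 3.36, 3.39 and 3.29 CPM, Tdrkh at 0.600, 2.03, 1.93 and 2.90 CPM, Colec12 at 7.39, 17.2, 16.03 and 22.4 CPM and Gpc4 at 2.46, 6.58, 6.84 and 8.54 CPM. Their co-culture differences were -2.54 ± 0.34 (SE, adjusted p = 0.000114), -2.29 ± 0.33 (SE, adjusted p = 0.000187), -1.67 ± 0.25 (SE, adjusted p = 0.000257) and -0.85 ± 0.31 (SE, adjusted p = 0.0379), and Gpc4 no longer reached the fold. In each of these 4 genes the lowest clone N value came from replicate 1, and the summed fibroblast markers given above were also lowest there among the clone N libraries. The part of fibroblast RNA in these values was not tested.

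**Figure D4:**
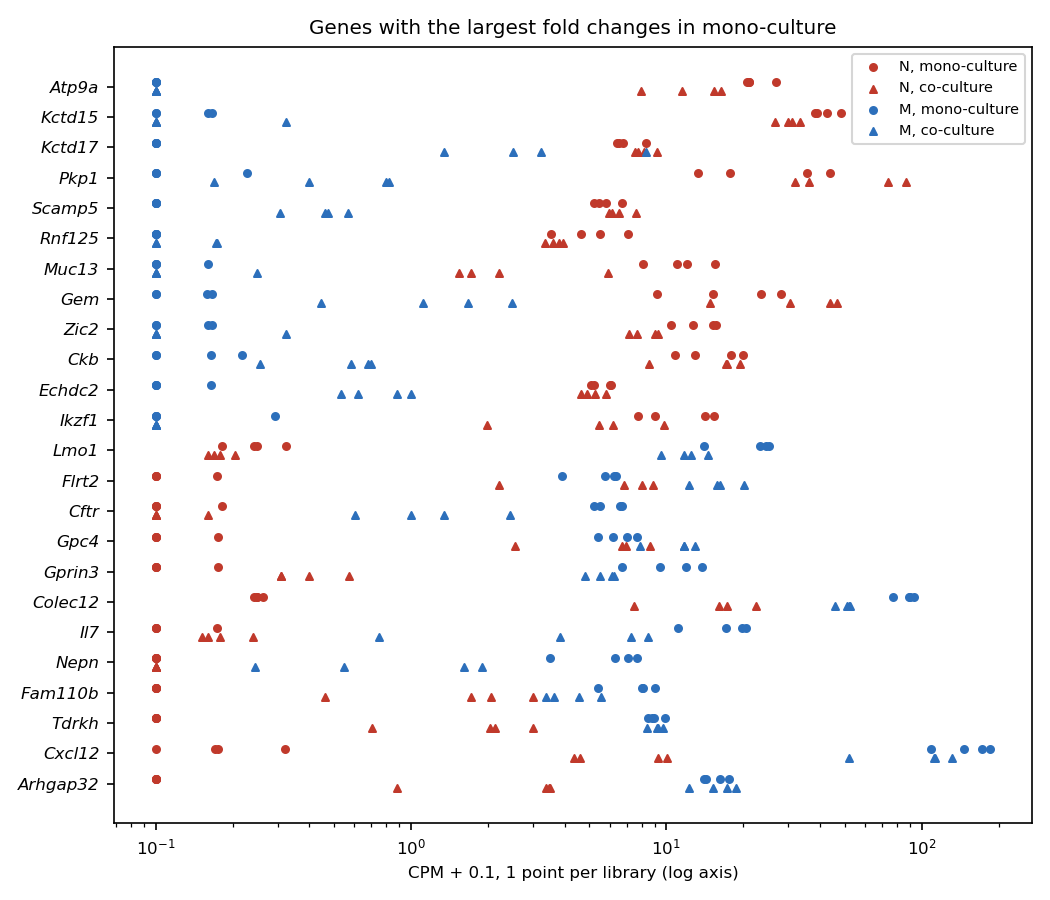
CPM plus 0.1 on a log axis, 1 point per library, of the 12 genes with the widest fold change on each side in mono-culture, for clone N (red) and clone M (blue) in mono-culture (circles) and co-culture (triangles). Points at the left edge are 0. In mono-culture the clones do not overlap for any of the 24, and in co-culture Kctd17 and Gpc4 overlap.

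The differences carried over to co-culture for most genes. Of the 2851 genes called in mono-culture, 1889 were called the same way in co-culture, 66.3% of the mono-culture calls and 74.5% of the 2537 co-culture calls (19.5% of tested genes), and 8 were called the opposite way, Lama4 and Col11a1 among them. Of the remaining 954, 881 had the same sign. Of the 142 genes chosen for naming by a rule on the mono-culture values, 119 were called in co-culture. The adjusted p passed in the mono-culture direction for 129, in the other direction for Col11a1, Lama4 and Inhbb, and not at all for 10.

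**Figure D5:**
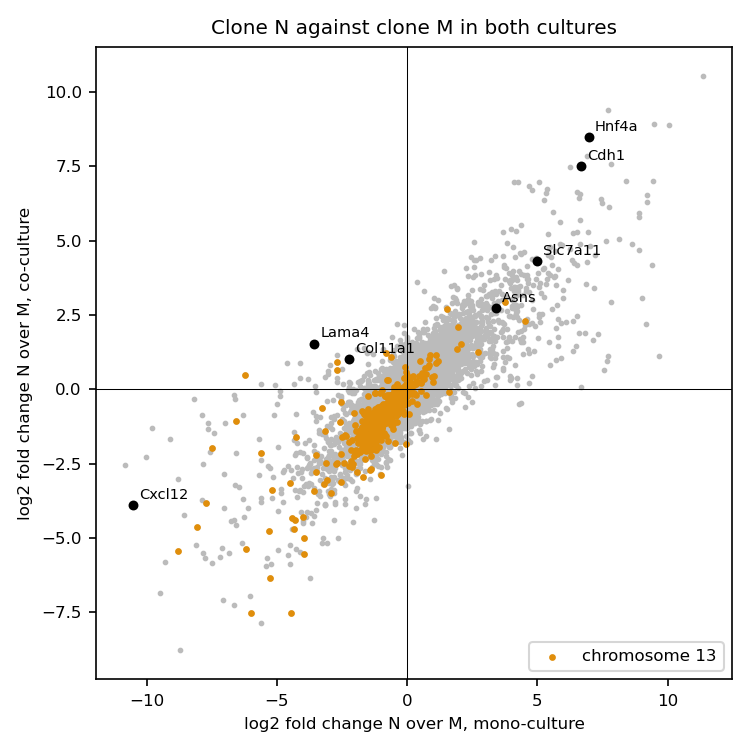
Log2 fold change, clone N over clone M, of each tested gene in mono-culture (horizontal) and co-culture (vertical), with genes on chromosome 13 in orange and some named genes in black. Asns, Slc7a11, Cdh1 and Hnf4a lie in the upper right, Cxcl12 in the lower left, and Lama4 and Col11a1 in the upper left. The values of genes with no counts in a clone depend on the prior count.

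Set among the other clones, the difference came from both sides. Of the 1489 genes called higher in clone N, 552 (37.1%) had a mean in clone N above those of the other 5 clones while clone M was not below them, 290 (19.5%) had clone M below the others while clone N was not above them, 288 (19.3%) had both, and 359 (24.1%) had neither. Of the 1362 called lower, clone M alone lay above the others for 466 (34.2%), clone N alone below them for 348 (25.6%), both for 247 (18.1%) and neither for 301 (22.1%). Asns, Atf4, Psph and Shmt2 were of the kind in which both clones lay outside, as the choice of the clones required.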

How the data were processed

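RNA was measured by strand-specific polyA sequencing (paired-end, 76 bases) in 64 libraries, of 7 clones and the line KPC1. The processing notes that the authors deposited name the mm10 build, featureCounts and edgeR without versions, and the aligner is not given in the sources used here. The deposited counts are raw read counts per gene (39017 genes), and the authors' RPKM values, normalized for depth and gene length, were used only in an alternative. In the 16 libraries of clones N and M, 13029 genes passed filterByExpr on the counts, and N was tested against M within each culture with edgeR 4.0.16 (TMM, glmQLFit, glmQLFTest, Benjamini-Hochberg, adjusted p under 0.1 and log2 fold change of at least 1), with limma 3.58.1 and DESeq2 1.42.0 as alternatives. No test compared the cultures with each other.

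The clones, 43 gene lists and tests were chosen with earlier results of these data known. Genes named in the text were the 4 that chose the clones, per list up to 2 in each direction with the widest mono-culture fold change among called genes whose libraries did not overlap, and the top 12 in each direction at 5 CPM or more in the higher clone; other names are list members or were added after their values were seen, and some items are not reported here. Fold bounds for a clone at 0 use a floor of 3 counts over its 4 libraries, and floors and intervals cover counting error only. Positions and strands are from GENCODE M21 (GRCm38), matched for 12925 of the tested genes. The scripts were tested on simulated data.

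Sample numbers run from 1 to 43 and from 44 to 64. Replicate 2 of clone M in both cultures and replicate 1 of clone N in co-culture carry numbers of the second range. Same-numbered libraries of N and M deviated together in co-culture (r = 0.259, 0.125, 0.201 and 0.227), each above 0.1, so the numbers were taken to pair them there, although replicate 2 of each clone correlated better with replicate 1 of the other. The co-culture tests did not use this pairing, except where a replicate block is named.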

Additional observations from a re-analysis of the deposited data

Results flagged for a closer look

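Within groups of 4 libraries, 1 library lay far from the other 3 in 46 of 572 groups examined (142 named genes in 4 groups each, and the 4 groups of library totals). The gap to the nearest library, divided by the group's range, was above Dixon's critical value. Chance alone flags about 1 in 20 such groups, or 28.6. Of the 46, 24 were in mono-culture and 22 in co-culture. Many were a single read or a few reads in a clone otherwise at 0. In clone N, co-culture, replicate 3, Trib3 was 314 CPM against 203 to 219.6 in the others and Gars was 833 CPM against 658 to 681 in the others. In clone N, co-culture, replicate 1, Gfpt2 was 10.2 CPM against 13.9 to 14.3 in the others, Mmp14 was 26.7 CPM against 47.3 to 49.4 in the others and Stc1 was 14.9 CPM against 46.7 to 50.99 in the others. There, Pdgfrb was 90.1 CPM against 129.5 to 134 in the others, Arhgap32 was 0.781 CPM against 3.29 to 3.39 in the others and Cftr was 0.0600 CPM against 0 in the others. In clone N, mono-culture, replicate 2, Pycr1 was 12.7 CPM against 23.8 to 24.4 in the others, Cldn1 was 0.148 CPM against 0 in the others and Gpnmb was 269.5 CPM against 80.5 to 110.1 in the others. There, Atp9a was 26.8 CPM against 20.7 to 20.98 in the others, Il7 was 0.0741 CPM against 0 in the others and Flrt2 was 0.0741 CPM against 0 in the others. In clone M, co-culture, replicate 4, Uqcrq was 80.2 CPM against 56.4 to 57.9 in the others, Hnf4a was 0.149 CPM against 0 in the others and Lcn2 was 0.149 CPM against 0.0689 to 0.0778 in the others. There, Kctd15 was 0.224 CPM against 0 in the others, Muc13 was 0.149 CPM against 0 in the others and Zic2 was 0.224 CPM against 0 in the others. In clone M, co-culture, replicate 2, Col27a1 was 0.156 CPM against 0.576 to 0.621 in the others, Fgf7 was 2.26 CPM against 3.38 to 3.53 in the others and Pecam1 was 0.389 CPM against 0.0689 to 0.0746 in the others. In clone N, mono-culture, replicate 4, Col11a1 was 0.214 CPM against 0.0741 to 0.0815 in the others and Gata6 was 0.0713 CPM against 0 in the others. In clone M, co-culture, replicate 3, Adamts12 was 3.74 CPM against 1.10 to 1.32 in the others and Nid1 was 358 CPM against 229 to 244 in the others. In clone N, mono-culture, replicate 1, Mmp14 was 15.2 CPM against 23.7 to 24.7 in the others, Gprin3 was 0.0749 CPM against 0 in the others and Gpc4 was 0.0749 CPM against 0 in the others. In clone M, mono-culture, replicate 4, Psmb8 was 1.64 CPM against 0.459 to 0.647 in the others and Muc13 was 0.0607 CPM against 0 in the others. In clone M, mono-culture, replicate 2, B2m was 1079 CPM against 878 to 910.0 in the others, Cxcl10 was 0.193 CPM against 0 in the others and Pkp1 was 0.128 CPM against 0 in the others. There, Echdc2 was 0.0642 CPM against 0 in the others and Ikzf1 was 0.193 CPM against 0 in the others. In clone N, co-culture, replicate 4, Cxcl10 was 5.88 CPM against 3.22 to 3.66 in the others. In clone N, mono-culture, replicate 3, Lcn2 was 16.1 CPM against 1.70 to 2.92 in the others and Cftr was 0.0815 CPM against 0 in the others. In clone M, mono-culture, replicate 3, Aldh1a1 was 2.56 CPM against 0.850 to 1.09 in the others, Ada was 0.328 CPM against 0.514 to 0.547 in the others and Ddc was 0.656 CPM against 0.176 to 0.257 in the others. There, Hoxa5 was 0.0656 CPM against 0 in the others. In clone N, co-culture, replicate 2, Muc13 was 5.81 CPM against 1.44 to 2.12 in the others. In clone M, co-culture, replicate 1, Colec12 was 45.6 CPM against 51.03 to 52.1 in the others. No library total stood apart.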

How the results depend on the processing

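The number of called genes stayed within 1.5 times of 2851 in mono-culture, 2537 in co-culture and 1889 shared under DESeq2, RLE, both other filters, the replicate block, sample numbers 1 to 43, 1 fit over 64 libraries, limma on log2(RPKM + 0.1) and an adjusted p under 0.05. It did not with limma on log2(RPKM + 1), which gave 1388, 1120 and 790, nor without a minimum fold, which gave 8696, 7900 and 6327. A larger pseudocount shrinks the fold of scarce genes, and dropping the minimum fold admits small ones. Leaving out 1 library at a time gave 2692 to 3166, 2351 to 2678 and 1772 to 1988. With chromosome 13 left out, chosen after seeing the data, the counts stayed within 1.5 times. That setting could hardly do otherwise, since the chromosome held 222 of the 1362 genes called lower and 12 of the 1489 called higher in mono-culture. With the replicate block the counts were 2840, 2572 and 1895. The block moved 2 of 142 named genes in co-culture across the threshold, Slc16a10 and Thbs2, both given beside their results, and changed no other call of a named gene. In mono-culture the numbers do not pair the libraries (r = 0.0584, 0.0528, 0.105 and -0.0358, and not every library correlated best with its own number). The latter also holds in co-culture, where every same-number r was above 0.1.

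Asns, Atf4, Psph and Shmt2 kept their direction and passed in co-culture under every alternative run. Leaving out 1 library gave co-culture values of 2.64 to 2.82 for Asns, 1.80 to 1.98 for Atf4, 2.11 to 2.32 for Psph and 1.99 to 2.15 for Shmt2.

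In co-culture 7 named genes near 0 changed direction under some setting, and the cause was not tested. With sample numbers 1 to 43 only, Glud1 was 0.00596, Hoxa5 -0.0261 and Cela1 -0.0565. With limma Cela1 was -0.0343 and -0.0471 at pseudocounts of 1 and 0.1. Car9 was 0.0171 with DESeq2, 0.000664 with RLE and 0.00932 in 1 fit over 64 libraries. Leaving out 1 library gave Glud1 -0.100 to 0.0453, Myl9 -0.0535 to 0.276, Cxcl16 -0.160 to 0.0186, Car9 -0.23 to 0.32, Hspa1a -0.51 to 0.27, Hoxa5 -0.10 to 0.63 and Cela1 -0.13 to 0.15. Across settings 11 named genes changed side of the threshold in co-culture: Ada, Adamts12, Col11a1, Col15a1, Dck, Inhbb, Kctd17, Mycl, Slc16a10, Smad9 and Thbs2. Col11a1 was lost without replicate 4 of clone N, and Kctd17 without replicate 1 or 4 of clone M.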
